A study of Mus musculus with 6 samples.

Results

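The 46 genes described here encode the protein quality-control machinery of the endoplasmic reticulum (ER) and the factors that sense its load. They were chosen by name, from a list of symbols grouped by function and not by their values, though with earlier results of these data known. Each was found on 1 line of every deposited table. They are 46 of 23282 genes listed, and fall into 3 genes of the unfolded protein response (UPR), 16 folding genes, 9 genes of ER-associated degradation (ERAD) and 18 genes of protein translocation and processing. The 3 UPR genes (Ern1, Atf6 and Xbp1) are named the sensors here, although Xbp1 encodes a transcription factor that a sensor activates. All 46 passed the filter on low values, a mean log2 value of at least 1, which 11279 genes passed.

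The RNA came from CD4 T cells of C57BL/6 mice (spleen and lymph nodes), in 3 WT and 3 AMPK KO samples. WT mice were Prkaa1fl/flCD4Cre-neg, so they carried the floxed alleles of Prkaa1, the gene for the catalytic α1 subunit of AMP-activated protein kinase (AMPK), and no Cre. In AMPK KO mice CD4Cre deleted the floxed gene in T cells, which leaves the other cells of the mouse with the gene. All cells were rested for 1 h in RPMI-1640 and stimulated with anti-CD3 and anti-CD28 at 2 µg/mL, for 24 h by the labels and for 6 h by the study's methods. The methods describe 6- to 8-week-old females. Libraries were made from 500 ng of RNA with a QuantSeq kit, which sequences the 3′ end of each transcript. The comparison asks how the loss of AMPK relates to genes of ER stress in stimulated CD4 T cells.

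Secreted and membrane proteins enter the ER through the translocon, receive sugars and disulfide bonds, and fold with the help of chaperones, while proteins that do not fold are sent back to the cytosol for degradation. When unfolded proteins accumulate, sensors in the ER membrane (IRE1, ATF6 and PERK) start the UPR, which raises the transcription of chaperone and ERAD genes. IRE1 splices the messenger of Xbp1, and the spliced form encodes an active transcription factor. Plasma cells depend on this pathway for antibody secretion, and T cells engage it when they are activated.

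Prkaa1, the targeted gene, was at a log2 value of 4.64, 5.24 and 4.86 in WT samples 1, 2 and 3 and at 4.08, 4.72 and 4.67 in AMPK KO samples 1, 2 and 3. The groups overlapped, and the log2 fold change of -0.43 did not pass the test (limma, adjusted p = 0.357; exact two-sided permutation test, p = 0.300, where 3 against 3 samples cannot give a p below 0.1). Reads fall at the 3′ end of the transcript, and a deletion elsewhere in the gene need not remove them, so this value neither shows nor disproves the deletion.

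Reads on genes ranged from 9574889 to 10168189 in WT and from 10515124 to 11185184 in AMPK KO samples. The ribosomal precursor Rn45s took 20.7% to 24.9% of them in WT and 8.48% to 10.8% in AMPK KO samples. Xist, which is expressed from the inactive X chromosome, had 8 to 32 reads per WT library and 1998 to 2876 per AMPK KO library, and the Y-linked Ddx3y had 3158 to 3462 and 1296 to 1840. Ddx3y reads in every library, with hardly any Xist in WT, go against the description of the mice as females, and sex and genotype cannot be told apart in these groups. Repeat samples of a group differed by 9.62 to 23.6 times the variance of read counting, and p-values measure the spread between these samples only.

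The samples also differed in markers of cell types. T cell defining markers were present in every sample, with Cd3e at log2 values of 7.30 to 7.38 in WT and 6.50 to 6.94 in AMPK KO samples, and Cd4 at 6.53 to 6.83 and 6.14 to 6.55. Of 15 T cell markers 2 had a higher mean in AMPK KO samples, 5 were called lower, and their summed normalized level was 3761 to 3990 in WT and 2879 to 3324 in AMPK KO samples. Of 10 plasma cell markers tested 9 had a higher mean in AMPK KO samples and 1, the antibody joining chain Jchain, was called higher. The sum of this list was 162 to 175 in WT and 472 to 552 in AMPK KO samples. Jchain made up most of that sum in every AMPK KO sample. Derl3 and Txndc5, of the same list, are also counted among the other pathway genes below. Each sum takes every listed marker present in the data, including those below the filter on low values. Jchain had log2 values of 5.83 to 6.01 in WT and 8.36 to 8.62 in AMPK KO samples, while the defining plasma cell markers Sdc1 (9 to 34 against 40 to 49 reads) and Tnfrsf17 (0 to 6 against 5 to 20 reads) were near the floor. All 16 macrophage and myeloid markers tested had a higher mean in AMPK KO samples and 7 were called, with sums of 511 to 592 in WT and 979 to 1701 in AMPK KO samples. The sums of the CD8 and NK markers were 336 to 441 and 506 to 569 (8 tested, 8 with a higher mean, 1 called higher). Those of the B cell markers were 466 to 514 and 470 to 551 (14 tested, 9 with a higher mean, 0 called by limma, 1 at an unadjusted p under 0.05). Those of the neutrophil markers were 799 to 913 and 527 to 767 (10 tested, 4 with a higher mean, 2 called lower). Of 14 T cell activation genes tested 6 had a higher mean, 3 were called higher and 1 lower, and the sums of that list were 2006 to 2351 and 1744 to 1973. The study isolated CD4 T cells with microbeads or a cell sorter and reports a check of purity by flow cytometry after bead sorting. The part of other cells in the ER genes' differences was not tested. In bulk RNA, fewer cells of a type and less RNA per cell cannot be told apart.

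The ER genes as a group stood slightly higher in AMPK KO samples, and 2 of them passed the test. Creld2 and Manf, both ER proteins known as targets of the UPR, were higher by 1.58 and 1.14 on the log2 scale. Both calls were lost without the filter on low values and in 4 of the 6 fits with 1 sample left out, and each was kept in 9 of 17 alternatives. No sensor, degradation or translocation gene passed the test. Of the 46 genes, 34 had a higher mean in AMPK KO samples (73.9%, against 51.2% of all genes tested) and 12 a lower one, and 29 had a higher mean when the values were scaled to reads outside Rn45s. The median log2 fold change was 0.21 over the 46 genes, with a range from -0.43 to 1.58, and 0.02 over all genes tested. Scaled to reads outside Rn45s these medians were 0.14 and -0.05.

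With limma and an adjusted p under 0.05, 2 of 46 ER genes (4.35%) were called and both were higher, against 5.65% of all genes tested (2.54% called higher and 3.10% called lower). The share called was thus near the background. Of the 637 genes called over all genes 45.1% were higher in AMPK KO samples, and this share was 32.2% when the values were scaled to reads outside Rn45s. WT and AMPK KO values did not overlap in 11 ER genes (23.9%, against 25.6% of all genes tested), with 9 higher in every AMPK KO sample (19.6%, against 11.6%) and 2 lower (against 14.0%). Scaled to reads outside Rn45s, 7 were higher without overlap (15.2%, against 9.11% of all genes in that fit) and 4 lower. An unadjusted p under 0.05 was reached by 12 of 46 genes (21.3% of all genes tested), of which 11 were higher (10.6% of all genes were) and 1 lower (10.7%).

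**Figure D1:**
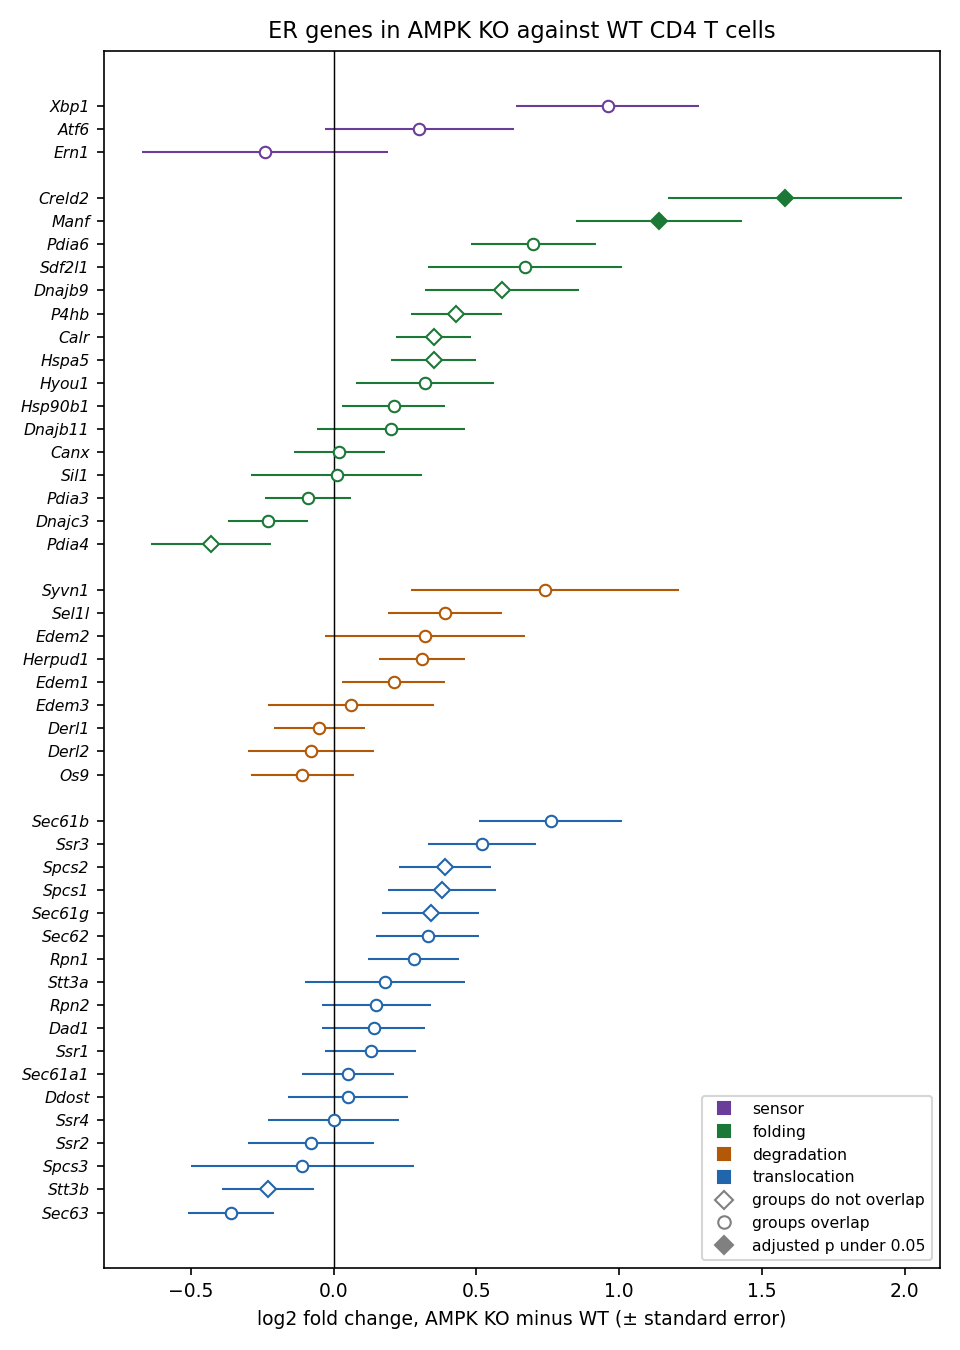
Log2 fold change (AMPK KO minus WT) of each of the 46 ER genes, by class, from limma on 3 samples per group. Bars are standard errors, filled diamonds are genes with an adjusted p under 0.05, and open diamonds are other genes whose groups do not overlap. Creld2 and Manf are the only filled points, and 34 of the 46 genes lie above 0.

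The reads on the 46 genes were 49054 to 57546 per WT sample and 76796 to 79578 per AMPK KO sample. As a share of reads outside Rn45s they were 0.722%, 0.714% and 0.682% in WT samples 1, 2 and 3 and 0.793%, 0.798% and 0.794% in AMPK KO samples 1, 2 and 3. The groups did not overlap in this share, and the AMPK KO samples lay close together. Such a sum gives most weight to genes with many reads. In each sample, the median deviation of the 46 genes from their own means was -0.12, -0.03 and -0.11 in WT and 0.09, 0.11 and 0.12 in AMPK KO, on the log2 scale, so that the shift was seen in every sample and was small.

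The 3 sensors differed in direction, with a median log2 fold change of 0.30, and with 1 sample left out it was 0.11 (AMPK KO 3), 0.12 (WT 1), 0.18 (AMPK KO 1), 0.36 (WT 3), 0.43 (WT 2) or 0.63 (AMPK KO 2). Their summed normalized level was 24.8, 46 and 30.4 in WT samples 1, 2 and 3 and 64.9, 33.3 and 74.1 in AMPK KO samples 1, 2 and 3, so that the sample numbered 2 was the highest of the WT group and the lowest of the AMPK KO group. The median and the sums include Xbp1, which is not itself a sensor. The genes of IRE1, ATF6 and PERK (Ern1, Atf6 and Eif2ak3) had log2 fold changes of -0.24, 0.30 and -0.72. Xbp1 (chr11:5520659-5525893, GRCm38, plus strand), the transcription factor that IRE1 activates, had log2 values of 3.99, 4.98 and 4.10 in WT samples 1, 2 and 3 and of 5.56, 4.58 and 5.80 in AMPK KO samples 1, 2 and 3. AMPK KO sample 2 lay below WT sample 2, so the groups overlapped, while the other AMPK KO samples lay above every WT sample. The means were 4.36 ± 0.54 and 5.31 ± 0.65 (SD, n = 3 each), and the log2 fold change of 0.96 (SE 0.32) did not pass the test over all genes (limma, adjusted p = 0.101). The exact two-sided permutation test of Xbp1 alone gave p = 0.200. These 3′ reads do not tell the spliced from the unspliced transcript.

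Xbp1 depended on single samples. Leaving out WT sample 2 gave a log2 fold change of 1.27 (adjusted p = 0.0347 in limma), and leaving out AMPK KO sample 2 gave 1.32 (adjusted p = 0.00570 in limma). Leaving out any of the other samples gave 0.71 to 0.83 with an adjusted p between 0.265 and 0.356 in limma.

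Ern1, the gene of the kinase and RNase IRE1α, was read by 9 to 22 reads per sample. Its log2 values were 1.33, 1.58 and 1.65 in WT and 1.51, 1.52 and 0.81 in AMPK KO samples, with a log2 fold change of -0.24 (limma, adjusted p = 0.792). In AMPK KO sample 3 the 9 reads have an exact 95% Poisson interval of 4.12 to 17.1, and a small difference was not detectable at this depth. Atf6, the sensor that is cut in the Golgi to free a transcription factor, had log2 values of 3.24, 3.86 and 3.71 in WT and 4.16, 3.26 and 4.30 in AMPK KO samples. The log2 fold change of Atf6 was 0.30 (limma, adjusted p = 0.643), and as for Xbp1 the AMPK KO sample 2 was the lowest of its group. Of the 3 sensors limma and its model for counts, voom on recovered reads, each called 0, and 1 (Xbp1) had an unadjusted p under 0.05. Over all genes tested limma called 5.65% and 21.3% had such a p, so the counts of 3 genes say little.

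The folding genes held both called genes and had a median log2 fold change of 0.33. Of the 16, 13 had a higher mean in AMPK KO samples, 2 were called (12.5%, against 5.65% of all genes tested), 6 were higher and 1 lower without overlap (11.6% and 14.0% of all genes were), and 7 had an unadjusted p under 0.05 (21.3% of all genes did). Their summed normalized level was 3014 to 3408 in WT and 3715 to 4116 in AMPK KO samples. The median was 0.32 for the 9 genes of the BiP system, 0.18 for the 2 lectin chaperones and 0.43 for the 5 disulfide isomerases and related proteins. Under quantile normalization and under scaling to reads outside Rn45s the median of the 16 folding genes was 0.29 and 0.27.

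Creld2 (chr15:88819646-88826683, GRCm38, plus strand) encodes an ER protein related to disulfide isomerases. Its log2 values were 1.33, 3.07 and 2.24 in WT samples 1, 2 and 3 and 3.80, 3.63 and 3.97 in AMPK KO samples 1, 2 and 3. Every AMPK KO sample lay above every WT sample, and the WT samples spread much more widely (2.22 ± 0.87 against 3.80 ± 0.17, SD, n = 3 each). The log2 fold change was 1.58 (SE 0.41; limma, adjusted p = 0.0369), which is 3.0-fold on the scale of the normalized value plus 1.

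Creld2 was read by few reads. There were 14, 74 and 33 reads in WT samples 1, 2 and 3 and 153, 122 and 175 in AMPK KO samples, and the exact 95% Poisson intervals, which cover counting error only, reached up to 92.9 in WT sample 2 and down to 101 in AMPK KO sample 2. These reads are not scaled for the depth of the samples.

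Manf (chr9:106838312-106891979, GRCm38, minus strand) encodes a small protein of the ER that binds BiP and can be secreted. Its log2 values were 3.68, 4.84 and 4.28 in WT and 5.70, 4.96 and 5.55 in AMPK KO samples. AMPK KO sample 2 lay only just above WT sample 2, and the groups did not overlap. The means were 4.27 ± 0.58 and 5.40 ± 0.39 (SD, n = 3 each), with a log2 fold change of 1.14 (SE 0.29; limma, adjusted p = 0.0352) or 2.20-fold.

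The 3′ end of Manf lies within Dcaf1, which is on the opposite strand and is listed in the files as Vprbp, and whether the counting used strand is not given in the sources used here. Vprbp itself had a log2 fold change of -0.13 (limma, adjusted p = 0.852).

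Both calls were lost in 4 of the 6 fits with 1 sample left out, in which 127, 133, 173 and 459 genes were called over all genes tested, against 637 with all samples. Without WT sample 1, WT sample 3, AMPK KO sample 1 or AMPK KO sample 3, the adjusted p in limma was 0.161, 0.129, 0.133 and 0.0817 for Creld2, with log2 fold changes of 1.14, 1.60, 1.59 and 1.50. For Manf it was 0.180, 0.133, 0.180 and 0.0679, with log2 fold changes of 0.84, 1.14, 0.99 and 1.07. Leaving out the WT or the AMPK KO sample numbered 2 kept both calls, with 0.0108 and 0.0257 for Creld2 and 0.0120 and 0.00596 for Manf. With all samples, the call of Creld2 was also lost with voom (adjusted p = 0.0509) and that of Manf with scaling to reads outside Rn45s (adjusted p = 0.0524), and both without the filter on low values (adjusted p = 0.123 and 0.110), all in limma. A block for the replicate number also lost both calls (limma, adjusted p = 0.126 for Creld2 and 0.154 for Manf). The summed plasma cell markers, mostly Jchain in AMPK KO samples, and the summed myeloid markers also stood higher in these samples. The part of both in the values of Creld2 and Manf was not tested.

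**Figure D2:**
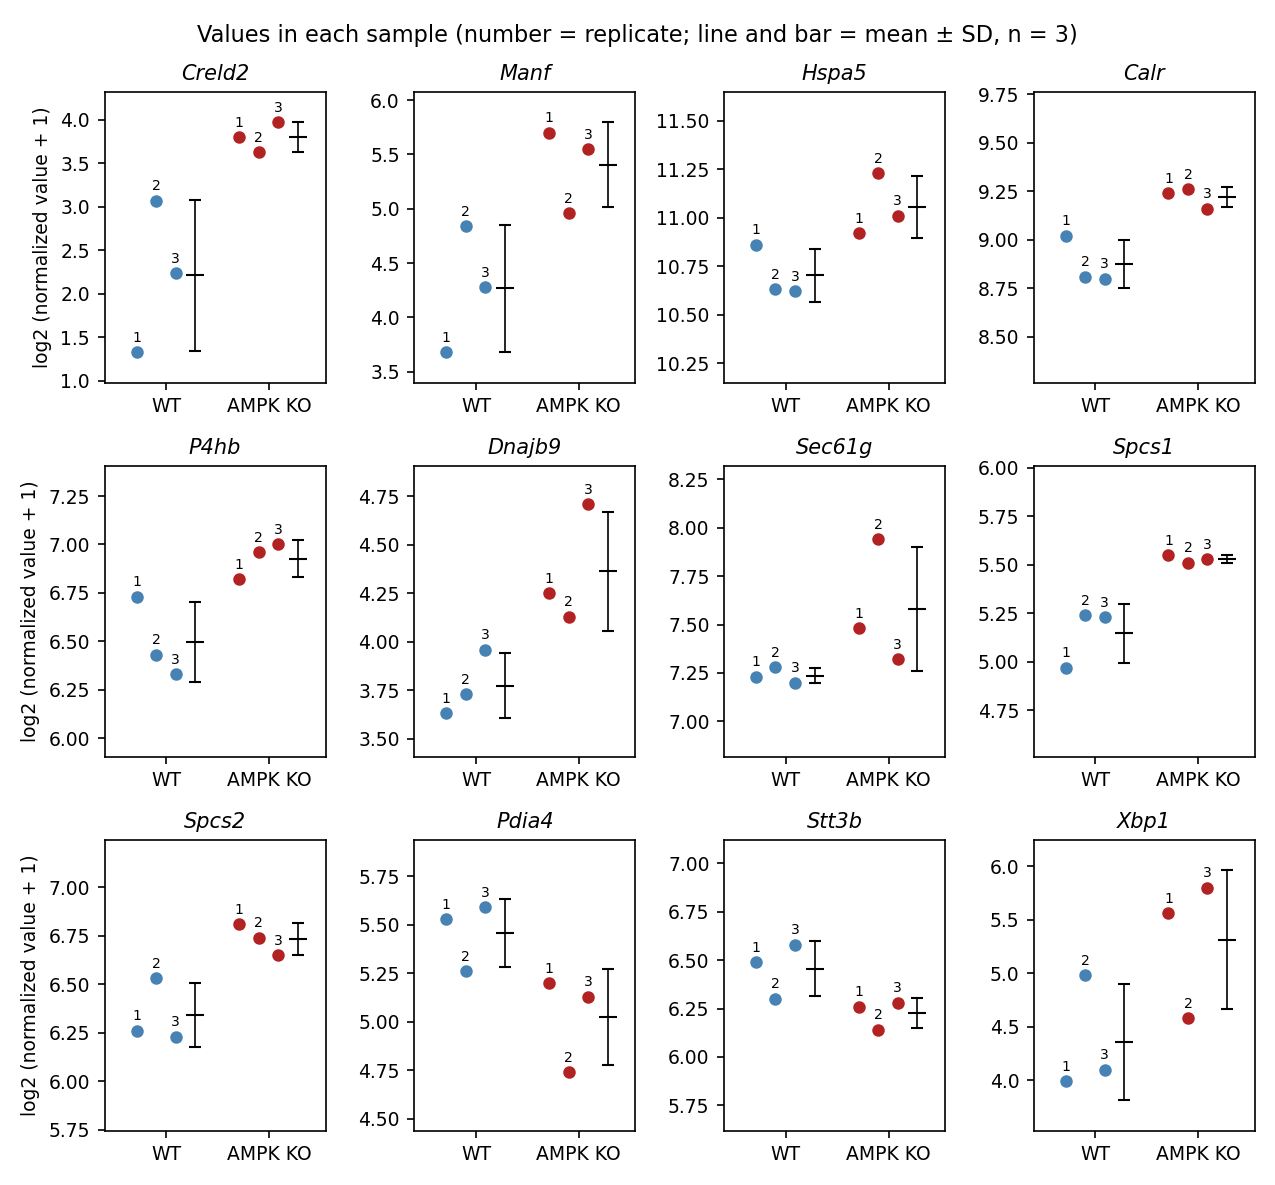
Log2 values in each of 3 WT (blue) and 3 AMPK KO (red) samples for the 11 ER genes whose groups do not overlap and for Xbp1. Numbers are the sample numbers, and the line and bar beside the points are the mean and SD; Pdia4 and Stt3b are the genes whose AMPK KO values all lie below WT, and Xbp1 overlaps through the samples numbered 2.

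Hspa5 encodes BiP, the HSP70 chaperone of the ER that also holds the sensors inactive. Its log2 values were 10.86, 10.63 and 10.62 in WT and 10.92, 11.23 and 11.01 in AMPK KO samples, with 13932 to 25713 reads per sample. The lowest AMPK KO value was just above the highest WT value, and the log2 fold change of 0.35 (SE 0.15) did not pass the test (limma, adjusted p = 0.199).

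Calr, the lectin chaperone calreticulin, was at 9.02, 8.81 and 8.80 in WT and at 9.24, 9.26 and 9.16 in AMPK KO samples, a log2 fold change of 0.35 (limma, adjusted p = 0.146). P4hb, the classical protein disulfide isomerase, was at 6.73, 6.43 and 6.33 and at 6.82, 6.96 and 7.0, a log2 fold change of 0.43 (limma, adjusted p = 0.130). Dnajb9, the BiP co-chaperone ERdj4, was at 3.63, 3.73 and 3.96 and at 4.25, 4.13 and 4.71, a log2 fold change of 0.59 (limma, adjusted p = 0.219). In these 3 genes every AMPK KO sample lay above every WT sample by a small margin, and none passed the test.

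Pdia6, another disulfide isomerase, had log2 values of 5.53, 6.37 and 5.54 in WT and 6.68, 6.28 and 6.58 in AMPK KO samples. Its log2 fold change of 0.70 (limma, adjusted p = 0.0773) was larger than that of P4hb, but WT sample 2 lay above AMPK KO sample 2. Its 3′ end lies within Atp6v1c2 on the opposite strand.

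Pdia4, the disulfide isomerase ERp72, was 1 of the 2 disulfide isomerases with a lower mean in AMPK KO samples. It had log2 values of 5.53, 5.26 and 5.59 in WT and 5.20, 4.74 and 5.13 in AMPK KO samples. The groups did not overlap, and the log2 fold change was -0.43 (limma, adjusted p = 0.242). The other folding genes with a lower mean were Dnajc3, the BiP co-chaperone p58IPK, at -0.23 (adjusted p = 0.378) and Pdia3, the isomerase that works with the lectin chaperones, at -0.09 (adjusted p = 0.781), both in limma. The remaining folding genes, Hsp90b1, Hyou1, Canx, Sdf2l1, Dnajb11 and Sil1, had log2 fold changes from 0.01 to 0.67 with overlapping groups, and the 3′ ends of Hsp90b1, Dnajb11 and Sil1 lie within a transcript of the opposite strand.

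UPR transcription factors act on folding genes through the ER stress element (ERSE), which the promoters of several of them share. The 300 bases from 250 before to 50 after each transcription start (RefSeq, GRCm38.p6) were searched on both strands for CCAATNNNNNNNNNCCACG, where N is any base. Promoters were found for 38 of the 46 genes, and the 8 others were Manf, Sec61a1, Derl1, Hyou1, Atf6, Ssr2, Spcs3 and Sil1. The ERSE was in 8 of the 38 (21.1%) and in 37 of the promoters of 27025 genes (0.137%). The shorter ERSE-II, ATTGG and CCACG with 1 base between them, was in 2 of 38 (5.26%), Dnajb11 and Herpud1, and in 12 genes (0.0444%), and the core of the UPR element, TGACGTG, was in 1 of 38 (2.63%), Hspa5, and in 601 genes (2.22%). No matches of different motifs overlapped in these promoters. The sites are shown because the element was in a larger share of these promoters than of all promoters searched, and a match is a description of the sequence and not a site of binding. Each line gives the promoter strand from 5′ to 3′, with the motif in capitals and 10 flanking bases on each side, and 2 of the genes, Calr and Creld2, and the site of Hsp90b1 nearer to its start carry the motif on the opposite strand, so that it begins CGTGG.
Hspa5, chr2:34772025-34772043, plus strand: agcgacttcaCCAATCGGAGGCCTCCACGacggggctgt
Hsp90b1, chr10:86705533-86705551, minus strand: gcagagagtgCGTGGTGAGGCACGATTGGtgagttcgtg
Hsp90b1, chr10:86705638-86705656, minus strand: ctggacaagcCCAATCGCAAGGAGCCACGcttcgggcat
Calr, chr8:84847075-84847093, minus strand: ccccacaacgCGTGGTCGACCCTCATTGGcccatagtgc
Canx, chr11:50325800-50325818, minus strand: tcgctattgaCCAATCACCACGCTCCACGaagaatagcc
Pdia6, chr12:17266491-17266509, plus strand: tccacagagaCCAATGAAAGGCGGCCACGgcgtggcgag
Creld2, chr15:88819520-88819538, plus strand: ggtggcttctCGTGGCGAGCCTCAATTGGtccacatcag
Dnajc3, chr14:118937827-118937845, plus strand: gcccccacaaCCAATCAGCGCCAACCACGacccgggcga
Syvn1, chr19:6046532-6046550, plus strand: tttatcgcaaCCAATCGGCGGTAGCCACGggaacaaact

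The last base of these sites lay 26 (Syvn1) to 194 (the farther site of Hsp90b1) bases before the start. Among the 8 genes with an ERSE, 7 had a higher mean in AMPK KO samples, the log2 fold changes ran from -0.23 (Dnajc3) to 1.58 (Creld2) with a median of 0.35, and 3 genes had groups that did not overlap. Among the 30 genes with a promoter and no ERSE, 22 had a higher mean, the log2 fold changes ran from -0.43 to 0.96 with a median of 0.21, and 7 genes had groups that did not overlap. Over all genes tested the groups did not overlap in 25.6%. Both sets spanned 0, and the genes with the element included Canx, at 0.02, and Dnajc3. The promoter of Creld2, the ER gene with the largest log2 fold change, is given whole for the 250 bases before its start (chr15:88819396-88819645, GRCm38, plus strand), with the ERSE in capitals.
Creld2 promoter: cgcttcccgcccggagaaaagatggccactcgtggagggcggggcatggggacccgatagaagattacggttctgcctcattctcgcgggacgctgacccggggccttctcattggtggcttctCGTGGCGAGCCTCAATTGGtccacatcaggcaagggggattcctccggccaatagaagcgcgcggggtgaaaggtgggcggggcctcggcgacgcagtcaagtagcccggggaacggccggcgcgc

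**Figure D3:**
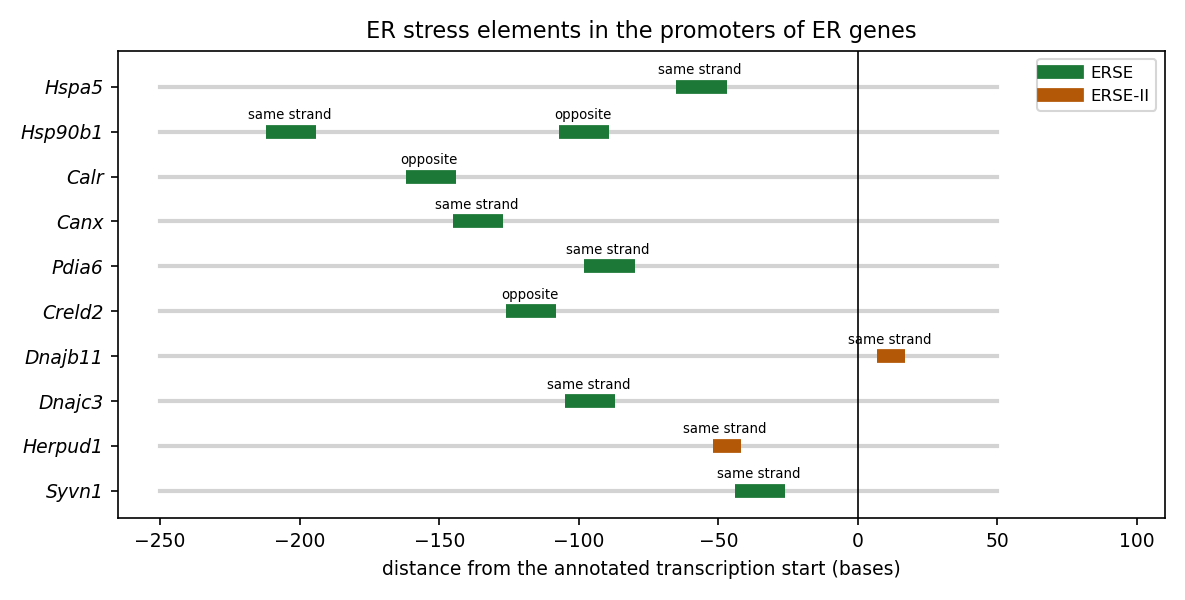
Positions of ERSE (green) and ERSE-II (orange) matches in the promoter windows of the 10 ER genes that hold one, in bases from the annotated start (0). Grey lines are the windows searched, from 250 bases before to 50 after the start; the ERSE matches lie 26 to 194 bases before it, and the labels give the strand of the motif relative to the gene.

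Of the 9 degradation genes, 6 had a higher mean in AMPK KO samples. Limma and voom on recovered reads each called 0 of them (5.65% of all genes tested in limma), 0 had an unadjusted p under 0.05 (21.3% of all genes) and 0 had groups that did not overlap (25.6% of all genes). With 9 genes, 0 called is a count too small to read against 5.65%. Their median log2 fold change was 0.21, from -0.11 to 0.74, and became -0.08 when WT sample 1 was left out. Their summed normalized level was 504 to 574 in WT and 576 to 634 in AMPK KO samples, with the lowest AMPK KO sum just above the highest of WT.

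Syvn1, the ubiquitin ligase HRD1 at the centre of ERAD, had the widest spread within a group of all 46 genes (SD 1.19 in AMPK KO samples). Its log2 values were 3.62, 4.67 and 3.39 in WT and 4.96, 3.31 and 5.62 in AMPK KO samples. AMPK KO samples 1 and 3 lay above every WT sample and AMPK KO sample 2 lay below them all, and the log2 fold change was 0.74 (SE 0.47; limma, adjusted p = 0.397). Without AMPK KO sample 2 it was 1.40 (limma, adjusted p = 0.0132). Dropping AMPK KO sample 3 instead gave 0.25 (limma, adjusted p = 0.828). Leaving out any of the other samples gave 0.49 to 1.13, with no call. The 3′ end of Syvn1 overlaps Mrpl49 on the opposite strand, which had a log2 fold change of the same size (0.74; limma, adjusted p = 0.154).

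Sel1l, the adaptor of HRD1, had log2 values of 5.82, 5.71 and 6.06 in WT and 5.97, 6.62 and 6.15 in AMPK KO samples, a log2 fold change of 0.39 (limma, adjusted p = 0.274). Here AMPK KO sample 2 was the highest, the reverse of Syvn1, although the proteins form one complex. Herpud1, the membrane scaffold of that complex, whose promoter holds an ERSE-II, was at 6.93, 7.11 and 6.81 and at 7.29, 7.38 and 7.10, a log2 fold change of 0.31 (limma, adjusted p = 0.255). The mannosidase-like genes Edem1, Edem2 and Edem3, which mark glycoproteins for degradation, were at 0.21, 0.32 and 0.06. The derlins Derl1 and Derl2, membrane proteins of the export step, were at -0.05 and -0.08, and the lectin Os9 was at -0.11, with adjusted p-values from 0.553 to 0.938 in limma for these 6 genes.

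The translocation genes differed in direction, also within complexes. Of the 18, 13 had a higher mean in AMPK KO samples. The groups did not overlap in 4 (22.2%, against 25.6% of all genes tested), with 3 higher (16.7%, against 11.6%) and 1 lower, 3 were higher and 1 lower at an unadjusted p under 0.05 (10.6% and 10.7% of all genes were), and limma and voom each called 0. The median log2 fold change was 0.14, from -0.36 to 0.76, and 0.07 when scaled to reads outside Rn45s. It was 0.33 for the 5 translocon genes, 0.06 for the 4 genes of the translocon-associated protein (TRAP) complex, 0.38 for the 3 signal peptidase genes and 0.14 for the 6 genes of oligosaccharyltransferase, which attaches sugars to entering proteins. The summed normalized level of the 18 genes was 1980 to 2041 in WT and 2212 to 2368 in AMPK KO samples.

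Within the translocon, the 3 subunits of the SEC61 channel had different values. Sec61b was at 5.31, 6.02 and 5.45 in WT and at 6.47, 5.79 and 6.80 in AMPK KO samples, a log2 fold change of 0.76 (limma, adjusted p = 0.0904), with AMPK KO sample 2 below WT sample 2. Sec61g was at 7.23, 7.28 and 7.20 and at 7.48, 7.94 and 7.32, a log2 fold change of 0.34 (limma, adjusted p = 0.247). The groups of Sec61g did not overlap, while the pore subunit Sec61a1 had a log2 fold change of 0.05 (limma, adjusted p = 0.891).

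Sec62 and Sec63, partners that bring finished chains to the channel, had opposite signs. Sec62 was at 8.61, 9.06 and 8.47 in WT and at 9.18, 8.69 and 9.27 in AMPK KO samples, a log2 fold change of 0.33 (limma, adjusted p = 0.311). Sec63, which recruits BiP through its J domain, was at 7.59, 7.42 and 7.66 and at 7.15, 7.42 and 7.0, a log2 fold change of -0.36 (limma, adjusted p = 0.184). In both genes the overlap lay between the samples numbered 2. Without AMPK KO sample 2 the log2 fold changes were 0.51 for Sec62 (adjusted p = 0.0305) and -0.48 for Sec63 (adjusted p = 0.0320), and without WT sample 2 they were 0.51 (adjusted p = 0.109) and -0.43 (adjusted p = 0.142), all in limma.

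Signal peptidase removes the signal sequence of entering proteins. Its subunit Spcs1 was at 4.97, 5.24 and 5.23 in WT and at 5.55, 5.51 and 5.53 in AMPK KO samples, a log2 fold change of 0.38 (limma, adjusted p = 0.251). Spcs2 was at 6.26, 6.53 and 6.23 and at 6.81, 6.74 and 6.65, a log2 fold change of 0.39 (limma, adjusted p = 0.160). Both stood higher in every AMPK KO sample with little spread among these samples, whereas Spcs3 had a log2 fold change of -0.11 (limma, adjusted p = 0.904) and spread widely.

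The TRAP subunit Ssr3 was at 5.72, 6.25 and 5.83 in WT and at 6.50, 6.19 and 6.67 in AMPK KO samples, a log2 fold change of 0.52 (limma, adjusted p = 0.128). The other subunits, Ssr1, Ssr2 and Ssr4, were at 0.13, -0.08 and 0.00. Ssr4 spread by sample and not by genotype, with 7.77, 7.13 and 7.84 in WT and 7.33, 8.14 and 7.27 in AMPK KO samples, so that the samples numbered 2 stood opposite to the others of their groups.

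Of the catalytic subunits of oligosaccharyltransferase, Stt3b was at 6.49, 6.30 and 6.58 in WT and at 6.26, 6.14 and 6.28 in AMPK KO samples. All of its AMPK KO values lay below WT, the closest by a small margin, and the log2 fold change was -0.23 (limma, adjusted p = 0.441). Stt3a, its alternative, had a log2 fold change of 0.18 (limma, adjusted p = 0.770), and Rpn1, Rpn2, Ddost and Dad1 had 0.05 to 0.28.

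Many of these genes differed between repeat samples in one way. In 15 of the 46 genes (32.6%, against 19.9% of all genes tested) WT sample 2 was the highest of its group and AMPK KO sample 2 the lowest of its own, and in 11 (23.9%, against 19.2%) it was the reverse. The first set included Xbp1, Atf6, Creld2, Manf, Pdia6, Syvn1, Sec61b, Sec62 and Ssr3, with a median log2 fold change of 0.38, and the second included Canx, Sel1l, Sec63 and Ssr4, with a median of 0.00. Among all genes with these patterns the medians were 0.23 and -0.07. Over the 46 genes, the deviation of WT sample 2 and that of AMPK KO sample 2 had a Pearson correlation of -0.58 (-0.32 over all genes tested), given as a description, since the genes share the same 6 libraries. The last 500 bases of the transcripts had a median GC content of 40.8% in the first set and 42.8% in the second, against 41.0% and 48.8% among all genes with these patterns. The part of this pattern in the results was not tested.

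**Figure D4:**
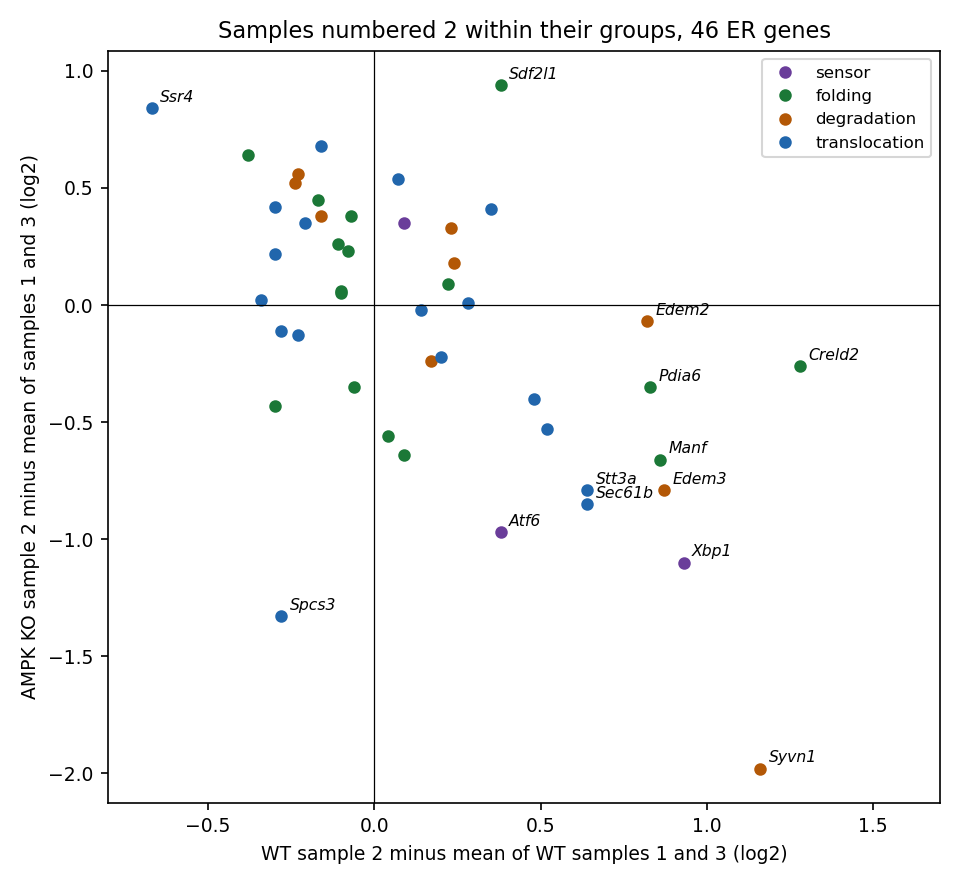
For each of the 46 ER genes, the log2 value of WT sample 2 minus the mean of WT samples 1 and 3 (horizontal) against the same difference in the AMPK KO group (vertical), coloured by class. The lower right part, where WT sample 2 is high and AMPK KO sample 2 is low, holds Xbp1, Syvn1, Sec61b, Manf and Creld2, and Ssr4 lies at the opposite end; Pearson's r over the 46 genes is -0.58.

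When the samples were divided by the pattern above, AMPK KO samples 1 and 3 against WT sample 2 differed by 0.81 for Creld2, 0.78 for Manf and 0.70 for Xbp1 on the log2 scale. AMPK KO sample 2 against WT samples 1 and 3 differed by 1.84, 0.98 and 0.53. For Hspa5, Calr and P4hb these differences were 0.34, 0.39 and 0.48 in the first and 0.49, 0.35 and 0.43 in the second. Since the groups of these genes other than Xbp1 do not overlap, the direction was fixed for them. Other genes turned negative on one side, with 0.37 and -0.22 for Atf6, 0.37 and -0.18 for Hsp90b1 and 0.62 and -0.19 for Syvn1. The labels do not give this division, which was drawn from these data and is given without a test.

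The number of ER genes called followed the samples that entered the fit. In limma, leaving out WT sample 2 gave 5 called genes (Xbp1, Pdia6, Creld2, Manf and Sec61b) against 6.46% of all genes, and leaving out AMPK KO sample 2 gave 10 (those 5 with Hsp90b1, Syvn1, Sec62, Sec63 and Ssr3) against 11.0% of all genes. Leaving out WT sample 1, WT sample 3, AMPK KO sample 1 or AMPK KO sample 3 gave 0 called ER genes, against 1.12%, 1.18%, 1.54% and 4.07% of all genes. The number of genes without overlap and higher in AMPK KO samples was 18 (39.1%, against 19.8% of all genes in the same fit) without WT sample 2 and 20 (43.5%, against 21.1%) without AMPK KO sample 2. Without any of the other samples it was 9 to 11 (19.6% to 23.9%, against 14.7% to 15.9%).

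**Figure D5:**
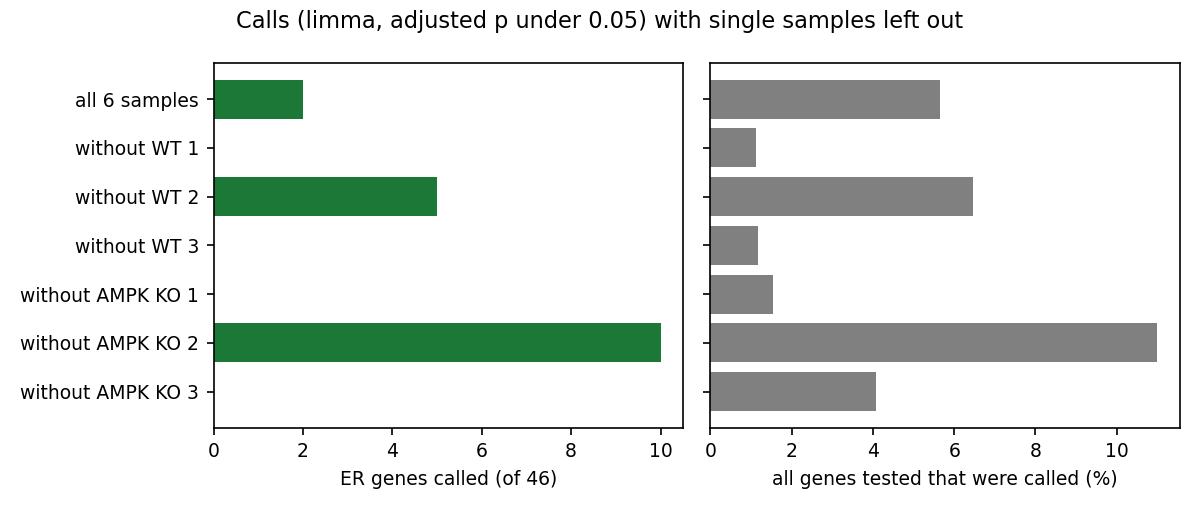
Number of the 46 ER genes called by limma (left) and percentage of all genes tested that were called (right), with all 6 samples and with each sample left out in turn. Calls among the ER genes reach 10 without AMPK KO sample 2 and 5 without WT sample 2, and are 0 without any of the other samples.

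Other genes of the same pathways, taken from 4 lists by function, were not called by limma. Of 110 symbols listed, 96 genes were tested, of which limma called 0, against 5.65% of all genes tested, and voom on recovered reads called 1. At an unadjusted p under 0.05, 12 were higher and 5 lower, against 10.6% and 10.7% of all genes tested. Their median log2 fold change was 0.08, and 57 had a higher mean (59.4%, against 51.2% of all genes tested). By list, the median was -0.05 for 14 other UPR regulators, 0.12 for 27 other folding genes, 0.04 for 23 other ERAD genes and 0.09 for 32 other translocation genes, with 0 called in each by limma and 4, 4, 2 and 7 at an unadjusted p under 0.05 (21.3% of all genes tested). Among the 23 other ERAD genes the groups did not overlap in 7 that were lower and 1 that was higher in AMPK KO samples, where 14.0% and 11.6% of all genes did so.

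No gene of the PERK arm of the UPR passed the test among those named here. Eif2ak3, the gene of PERK, had log2 values of 5.08, 4.95 and 4.82 in WT and 4.23, 3.63 and 4.84 in AMPK KO samples, a log2 fold change of -0.72 (limma, adjusted p = 0.160). Atf4, the transcription factor whose translation PERK raises, was at 10.09, 9.84 and 10.09 and at 10.39, 10.83 and 10.42, a log2 fold change of 0.54 (limma, adjusted p = 0.0574). Atf4 was higher in every AMPK KO sample, with AMPK KO sample 2 the highest, which differs from the order of Xbp1 and Manf in the same samples. Ddit3, the gene of the stress factor CHOP, had a log2 fold change of -0.19 (limma, adjusted p = 0.527). The 14 other UPR regulators, which include these 3 genes, had a higher mean in 6 and a lower one in 8, with log2 fold changes from -0.87 (Mbtps2) to 0.56 (Trib3). Besides Atf4, the groups did not overlap in 2 of them, both lower in AMPK KO samples: Nfe2l2 at -0.67 and Mbtps1 at -0.43 (adjusted p = 0.0521 and 0.0957 in limma). These regulators besides Eif2ak3, Atf4 and Ddit3 were named after their values were seen.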

How the data were processed

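RNA from 3 WT and 3 AMPK KO samples was sequenced as QuantSeq 3′ libraries by a company (Ebiogen). The authors deposited 1 table per sample on a log2 scale: reads scaled with TMM and CPM, a pseudocount of 1 added and the log2 taken. The submitters' processing notes name Bowtie2, bedtools and mm10; versions, the gene annotation and the strand setting are not given in the sources used here. Groups and numbers came from the labels. No column of another sample was left unused (0).

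The log2 values were used as deposited. Genes with a mean of at least 1 were tested for genotype alone with limma 3.58.1 in R 4.3.3 (two-sided, trend of the spread with the mean, Benjamini-Hochberg over 11279 genes, threshold 0.05). Reads were recovered from the steps of low values: up to 100 reads, 100% of values lay within 0.1 of a whole number; on these reads limma with voom, an alternative, called 539 genes. Values of single genes also entered an exact permutation test. The script was tested on simulated data with known changes. The smallest p of 0.1 follows from 3 against 3 samples. Intervals on reads cover counting error only.

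The 46 members, their classes, the 4 other pathway lists and the marker lists (plasma cell, B cell, macrophage and myeloid, neutrophil, CD8 and NK, T cell, T cell activation) were chosen with earlier results of these data known. Named were the 3 sensors, members called in any fit or with groups that do not overlap, the 3 largest rises and falls of each class, Prkaa1, Eif2ak3, Atf4 and Ddit3. Other members were named after their values were seen, to account for each class or for a promoter motif. Alternatives were quantile normalization, scaling to reads outside Rn45s, no filter, a filter at 3, a pseudocount of 0.5, a replicate block, leaving out each sample, robust spread and voom, with those added later named in the closing section. Promoters came from RefSeq (GRCm38.p6) and gene positions from GENCODE M21 (GRCm38). Figures used Python 3.11.15, pandas 2.3.3 and matplotlib 3.10.9.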

Additional observations from a re-analysis of the deposited data

How the results depend on the processing

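Having 3 samples per group, and few reads on Creld2 and Ern1, limits what can be resolved. Of 373 values of 22 members under 17 alternatives, 330 kept their direction and side of the threshold. Scaling to reads outside Rn45s gave 1 called ER gene (Creld2, with Manf lost) and 1 called gene of the other pathway lists, with medians of 0.27 (folding), 0.07 (translocation), 0.14 (all 46) and -0.05 (all genes). Quantile normalization gave medians of 0.29 (folding) and 0.18 (translocation). No filter gave 308 genes and 0 ER genes called, voom 1 ER gene (Manf, with Creld2 lost) and 1 other gene, a filter at 3 gave 1 other gene, and robust spread 2 other genes. Leaving out each sample gave 127 to 1243 genes called, 0 to 10 ER genes, 9 to 20 ER genes without overlap and higher, 0 to 12 other genes, medians of 0.26 to 0.37 (folding), 0.15 to 0.17 (translocation), 0.11 to 0.63 (sensors), -0.08 to 0.31 (degradation) and 0.18 to 0.31 (all 46), and 0.71 to 1.32 for Xbp1. Ssr4, at 0.00, had 0.06 under quantile normalization and -0.28 to 0.15 over the samples left out. The causes of these changes were not tested. The replicate numbers did not pair the samples: deviations of samples with the same number correlated at -0.08, -0.32 and -0.16, and no sample correlated best with its own number. With the replicate block, 102 genes and 0 ER genes were called (limma, adjusted p = 0.126 for Creld2 and 0.154 for Manf). The following were added after seeing the data. Correction for the GC content of transcript ends gave 2 other genes called and medians of 0.27, 0.08 and 0.17 (folding, translocation, all 46), and with the replicate block 236 genes and 0 ER genes called, with the same medians of 0.27, 0.08 and 0.17. Leaving out both samples numbered 2 gave 2380 genes (21.1% of all genes in that fit), 13 ER genes (11 higher and 2 lower) and 21 other genes called. ER genes without overlap numbered 25 higher (54.3%, against 29.5% of all genes in that fit) and 10 lower. The medians were 0.33 (degradation), 0.16 (translocation) and 0.26 (all 46), and Xbp1 was at 1.63. The p-values of that fit are too small, since the samples were picked from these data. Over all 17 alternatives Creld2 ranged from 1.14 to 2.10 (limma, adjusted p from 0.000936 to 0.161) and Manf from 0.84 to 1.64 (2.4e-05 to 0.180), and each was called in 9.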
